A study of Homo sapiens with 4 samples.

Results

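The comparison described here sets CD133-high over CD133-low cells among E-cadherin-high PC14 cells. PC14 is a line derived from a human non-small-cell lung cancer. Its members are the arrays labelled PC14 E+CD133+ and PC14 E+CD133-, which are 2 of the 4 arrays of the series. The other 2 arrays, PC14 E-CD133+ and PC14 E-CD133-, form the matching E-cadherin-low pair, and they are used to show which differences were not shared. Cultured cells were first separated by fluorescence sorting for surface E-cadherin, and each fraction was then sorted by green fluorescent protein, expressed from a lentivirus under promoter P1 of human CD133. All 4 groups carry that reporter, so CD133-high and CD133-low refer to reporter activity and not to CD133 protein, and all 4 come from 1 line. Total RNA of each subpopulation was read on 1 one-colour Affymetrix array. There is therefore no replicate check on any difference below, no test was possible, and differences are described by their size.

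E-cadherin, encoded by CDH1, is the adhesion protein that joins neighbouring epithelial cells, and cells that lose it in the epithelial to mesenchymal transition gain matrix and motility genes. CD133, encoded by PROM1, is a membrane glycoprotein of cell protrusions that is widely used to enrich stem-like cells from tumours, and its gene has several alternative promoters. HOX genes, which lie in chromosomal clusters and give cells their position along the body axis, often keep a fixed expression pattern within a cell lineage.

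The values are signals on a linear scale. Signals below the median of an array's probe sets, the floor, were set to that floor, which lay at 53.7 and 57.4 on the CD133-high and CD133-low arrays of the E-cadherin-high pair, and at 60.3 and 57.0 on those of the E-cadherin-low pair. Each gene was represented by 1 probe set, and 13253 of 19775 named genes were measured, that is, above the floor on at least 1 array of the E-cadherin-high pair. A log2 ratio is the log2 of the CD133-high over the CD133-low signal, and a gene is called higher or lower from a difference of at least 2-fold. A ratio with 1 of its arrays at the floor is a bound and is written with "at least" or "at most". As a sign of RNA quality, actin probe sets of the 3′ end read 1.59 times those of the 5′ end on the CD133-high and 1.57 times on the CD133-low array, and for GAPDH these values were 0.960 and 0.898. In the E-cadherin-low pair they were 1.78 and 1.53 for actin and 1.02 and 0.963 for GAPDH, so the E-cadherin-low CD133-high array had the highest of both. In bulk RNA, more cells of a kind and more RNA per cell cannot be told apart.

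The signals of the sorted markers were read first. CDH1 read 5548 in CD133-high against 3546 in CD133-low E-cadherin-high cells, and 347 and 528 in the E-cadherin-low pair. The E-cadherin label thus matched the CDH1 signal, and within the E-cadherin-high pair CDH1 was 1.56-fold higher in CD133-high cells, under the 2-fold rule. Another CDH1 probe set read at most 55.0 on any array, close to the floor. PROM1 read 12.1 in CD133-high against 29.7 in CD133-low cells, and 10.3 and 4.79 in the E-cadherin-low pair, all below the floor, so the array gives no check of the CD133 sort.

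Of the 13253 measured genes, 710 were at least 2-fold higher in CD133-high cells, which is 5.36%, and 456 were at least 2-fold lower, which is 3.44%, and both together made 8.8%. The counts of called list members below are to be read beside the shares of 5.36% and 3.44%. At least 4-fold, 94 genes were higher (0.709%) and 62 lower (0.468%). The median log2 ratio over all measured genes was -0.02, and 9 in 10 genes lay between -0.86 and 1.04. Of the called genes, 131 higher and 107 lower ones rest on 1 array at the floor. In the E-cadherin-low pair 1142 of 13307 measured genes were higher (8.58%) and 601 lower (4.52%).

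**Figure D1:**
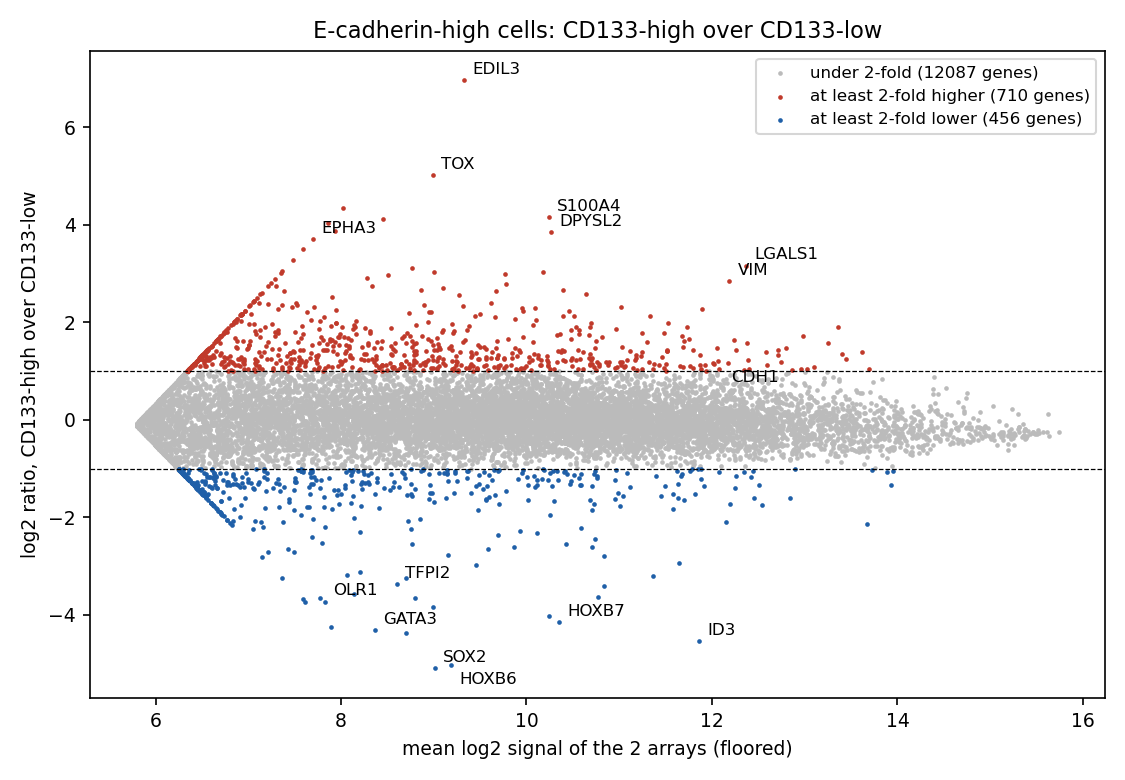
Log2 ratio of CD133-high over CD133-low signal in E-cadherin-high cells against the mean log2 signal of the 2 arrays, one point per measured gene, with the 710 higher and 456 lower genes coloured. EDIL3 and TOX lie at the top, and SOX2, HOXB6 and ID3 at the bottom, away from the band of other genes.

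The highest log2 ratios were those of EDIL3, TOX and KLHL41. EDIL3, a secreted integrin ligand, read 7185 in CD133-high against 45.3 in CD133-low cells, at least 125-fold higher (log2 ratio at least 6.97). It read 9271 and 33.9 in the E-cadherin-low pair, so on both pairs the CD133-low arrays were below the floor. TOX, a DNA-binding protein known from T-cell development, read 2899 in CD133-high against 89.6 in CD133-low cells, 32.3-fold higher, and 735 and 27.6 in the E-cadherin-low pair. Its divergent transcript TOX-DT read 555 and 30.0. KLHL41, a protein of muscle sarcomeres, read 1173 in CD133-high against 22.6 in CD133-low cells, at least 20.4-fold higher, and 865 and 41.1 in the E-cadherin-low pair.

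Some of the calcium-binding S100 proteins were among the 15 highest. S100A4, which binds the cytoskeleton of motile cells, read 5129 in CD133-high against 286 in CD133-low cells (log2 ratio 4.16). S100A6 read 941 in CD133-high against 10.7 in CD133-low cells, at least 16.4-fold higher. Of 9 measured S100 genes, 3 were higher (33.3%, with S100A2 at 1.41) and 1, S100A16, was lower at -1.23 (11.1%). The median of the list was 0.03. The higher S100 genes are neighbours on chromosome 1, and S100A16 differed in the other direction.

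A lectin, an axonal protein and a matrix protein were also among the 15 highest. LGALS1, a secreted lectin, read 15831 in CD133-high against 1764 in CD133-low cells (log2 ratio 3.17), beside 18772 and 584 in the E-cadherin-low pair. DPYSL2, a microtubule regulator of growing axons, read 4660 and 324 (3.85). FBN2, which forms microfibrils of the matrix, read 938 and 64.1 (3.87). LGALS1, DPYSL2 and FBN2 were each higher in both CD133 pairs.

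The other genes among the 15 highest were PNMA2, EPHA3, DPYD, ZDBF2, LOC441666 and RASSF9. EPHA3, a receptor for ephrins, read 753 in CD133-high against 4.72 in CD133-low cells, at least 13.1-fold higher. PNMA2, a neuronal antigen, read 1460 and 84.2 (4.12), and RASSF9 read 1474 and 179 (3.04). The other measured probe set of RASSF9 read 690 and 516, a log2 ratio of only 0.42. The probe sets of DPYD, the enzyme that breaks down pyrimidines, differed in sign: the brighter one gave at least 3.50 and another measured one at most -0.74. The latter was dim, with 38.3 in CD133-high against 89.8 in CD133-low cells.

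The lower genes were led by HOX genes of the HOXB cluster on chromosome 17. HOXB6 read 102 in CD133-high against 3319 in CD133-low cells, 32.6-fold lower (log2 ratio -5.03), and 177 and 2959 in the E-cadherin-low pair. HOXB7 read 310 in CD133-high against 5469 in CD133-low cells (-4.14), HOXB3 read 300 and 4878 (-4.03), and HOXB2 read 562 and 5976 (-3.41). The CD133-high signals were a small part of the CD133-low ones for each of these genes.

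Of 11 measured HOXB genes, 9 were lower and 0 higher, with a median of -3.66 against -0.02 over all measured genes, and all 9 were also lower in the E-cadherin-low pair, where the median of the list was -3.52. They are HOXB2 to HOXB9 and the antisense HOXB-AS3, and their log2 ratios ran from -5.03 to -3.23. The measured members that were not called were HOXB1, at -0.44 as a bound, and HOXB-AS1, at -0.39. Of 12 listed HOXA genes, only 2 could be read, as probe sets with several gene symbols were not used. The others have no value here. The 1 measured member, HOXA2, read 3.04 in CD133-high against 686 in CD133-low cells, at least 12.8-fold lower.

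The microRNA gene MIR10A lies within the HOXB cluster, and its annotated probe set was lower as well. It read 38.1 in CD133-high against 181 in CD133-low cells (log2 ratio at most -1.75), and 38.0 and 309 in the E-cadherin-low pair. This probe set does not measure the mature microRNA, and its overlap with other transcripts of the locus was not tested. The mature 5p strand is shown because it is the product of this gene, with the seed, bases 2 to 8, in capitals (RefSeq, GRCh38.p14, chr17:48579904-48579926, minus strand):
hsa-miR-10a-5p: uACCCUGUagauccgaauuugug

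The HOXD genes were lower by less, and the HOXC genes were mostly not called. Of 7 measured HOXD genes, 6 were lower and 0 higher, with a median of -1.5 beside -1.05 in the E-cadherin-low pair. HOXD10 read 377 in CD133-high against 2301 in CD133-low cells (log2 ratio -2.61), and HOXD1 read 180 and 1052 (-2.55). HOXD8 was not shared: it read 435 in CD133-high against 996 in CD133-low cells (-1.19), and 1094 and 1014 in the E-cadherin-low pair. Of 8 measured HOXC genes, 1 was lower, HOXC9 at -1.43, and the median was -0.42.

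**Figure D2:**
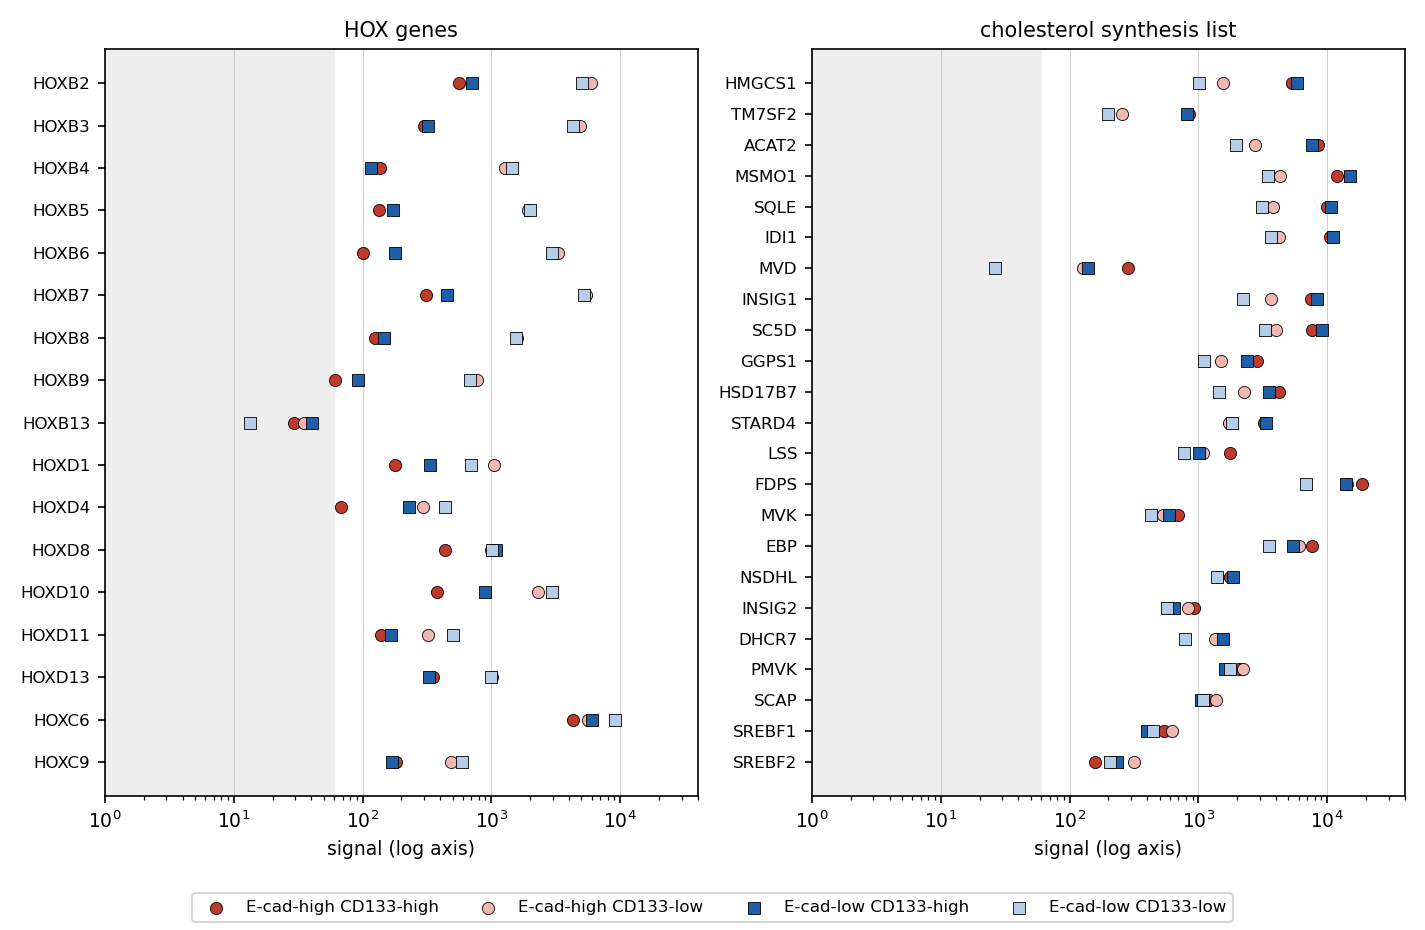
Signals on a log axis of HOX genes and of sterol synthesis genes on each of the 4 arrays, one point per array. For HOXB2 to HOXB9 both CD133-high arrays lie far left of both CD133-low arrays, for HMGCS1, MSMO1 and SQLE they lie to the right, and HOXB13 lies below the floor (grey).

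ID proteins are helix-loop-helix factors without a DNA-binding domain that hold back differentiation, and they are typical targets of bone morphogenetic protein (BMP) signalling. ID3 read 771 in CD133-high against 17878 in CD133-low cells, 23.2-fold lower (log2 ratio -4.53), and 181 and 19862 in the E-cadherin-low pair. ID2 read 1160 and 8892 (-2.94). ID1 read 9339 in CD133-high against 17411 in CD133-low cells, a log2 ratio of -0.90 that is under the rule.

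In the ID and BMP list, 9 of 28 measured members were lower (32.1%) and 2 higher (7.14%). The median was -0.48, beside -0.18 in the E-cadherin-low pair. The lower members included both signal transducers and inhibitors of the pathway. SMAD9, a BMP receptor substrate, read 103 in CD133-high against 421 in CD133-low cells (-2.03), and SMAD1 read 584 and 1195 (-1.03). The inhibitor SMAD6 had a ratio of -2.07, the decoy receptor BAMBI -1.53, the BMP antagonist NOG -1.48 and the antagonist NBL1 -1.32. The higher members were CHRDL1, a secreted BMP antagonist, at 1.92 and TWSG1 at 1.12. Members therefore differed in both directions within the antagonists, and NOG was not shared by the E-cadherin-low pair (-0.12).

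SOX2, a transcription factor of stem cells and of airway epithelium, had the lowest log2 ratio of all measured genes and was not shared. It read 88.3 in CD133-high against 3021 in CD133-low E-cadherin-high cells, 34.2-fold lower (log2 ratio -5.10). In the E-cadherin-low pair it read 5006 and 4262 (0.23), so 1 of the 4 arrays was low and 3 were high. A second SOX2 probe set read 42.0 in CD133-high against 324 in CD133-low cells, and 404 and 493 in the E-cadherin-low pair, with the same array low. The remaining measured one lay near the floor and gave at most -0.30.

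In the list of stem-like cancer cell genes, 2 of 18 measured members were higher and 3 lower, with a median of -0.37. The higher ones were CD24, a surface protein, at 1.46 and LGR4, an R-spondin receptor, which read 3813 in CD133-high against 1049 in CD133-low cells (1.86). The lower ones were SOX2, ID2 and ID3. ALDH1A1, an aldehyde dehydrogenase used as a stem-cell marker, read 15183 and 24377 (-0.68), and MYC had a ratio of -0.54, both under the rule.

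Transcription factors of lung and endoderm differed in both directions, 3 higher and 3 lower of 20 measured, 15% each. GATA3, a lineage factor of several epithelia, read 73.7 in CD133-high against 1470 in CD133-low cells (log2 ratio -4.32), and 154 and 3523 in the E-cadherin-low pair. GATA2 had a ratio of -1.63, but its other measured probe sets gave -0.52 and -0.59, under the rule. The higher factors were NKX2-1, which directs lung epithelium, with 215 and 70.4 (1.61), FOXA2, with 340 and 97.4 (1.80), and FOXP2, with 2127 and 795 (1.42). All 3 higher factors were not shared, NKX2-1 only narrowly, with 0.49 in the E-cadherin-low pair against a limit of 0.5. FOXA2 was below the floor on both E-cadherin-low arrays (7.16 and 17.0). The other FOXA2 probe sets were below the floor on every array, and another NKX2-1 one on both E-cadherin-high arrays.

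Of 45 measured homeobox and patterning factors outside the HOX clusters, 10 were higher, which is 22.2% against 5.36% of all measured genes, and 4 lower, which is 8.89% against 3.44%. The median of the list was -0.10, and 24 of the 45 had a negative log2 ratio. EMX2, a factor of the forebrain and urogenital tract, read 226 in CD133-high against 40.4 in CD133-low cells, at least 3.93-fold higher. EYA1, a transcriptional cofactor in organ development, read 295 and 18.7, at least 5.14-fold higher, and was not shared. TBX2 was lower at -2.03 and IRX2 at -2.32.

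Enzymes of cholesterol synthesis were among the genes higher in CD133-high cells. Of 23 measured members, 8 were higher and 0 lower, which is 34.8% against 5.36% of all measured genes, and the median log2 ratio was 0.91. All 8 were also higher in the E-cadherin-low pair, where the median was 1.04 and 12 of 23 were higher. HMGCS1, which makes the precursor of mevalonate, read 5291 in CD133-high against 1544 in CD133-low cells (log2 ratio 1.78), and MSMO1, which removes methyl groups from sterols, read 11873 and 4285 (1.47). SQLE, the squalene epoxidase, read 9944 and 3802 (1.39).

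The remaining higher members were TM7SF2 at 1.73, ACAT2 at 1.64, IDI1 at 1.33, MVD at 1.18 and INSIG1 at 1.02. They cover early steps that make isoprenoid units and late steps of the sterol ring, and INSIG1 is a feedback brake on the pathway. The sterol regulators themselves were not higher: SREBF2, the main activator of these genes, had a ratio of -0.99 and SREBF1 of -0.20. In the fatty acid synthesis list, 1 of 21 measured members was higher (ACSS2, 1589 in CD133-high against 501 in CD133-low cells), and the median was 0.16.

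The promoters of these enzymes are known to hold sterol response elements beside sites of the factor NF-Y, which binds CCAAT. In the RefSeq promoter windows (GRCh38.p14), TCACNCCAC, read on both strands, was found in 1.13% of 35116 windows and in 1 of 29 windows of the measured cholesterol genes, that of SREBF2. The pentamer CCAAT, a search chosen after the data were seen and also read on both strands, was found in 34.6% of all windows and in 19 of 29 windows of the measured cholesterol genes (65.5%). Of the 8 higher genes, 6 had windows in the table, and 7 of their 9 windows held CCAAT, while 0 held TCACNCCAC. Neither motif contains the other, although matches can overlap at their ends, and a match describes letters and not binding.

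The windows of HMGCS1 (chr5:43313363-43313662, minus strand) and MSMO1 (chr4:165327419-165327718, plus strand) are shown because these enzymes had clear ratios and windows with several matches. Capitals mark CCAAT or its reverse complement, with 2 in the HMGCS1 window and 4 in the MSMO1 window:
HMGCS1: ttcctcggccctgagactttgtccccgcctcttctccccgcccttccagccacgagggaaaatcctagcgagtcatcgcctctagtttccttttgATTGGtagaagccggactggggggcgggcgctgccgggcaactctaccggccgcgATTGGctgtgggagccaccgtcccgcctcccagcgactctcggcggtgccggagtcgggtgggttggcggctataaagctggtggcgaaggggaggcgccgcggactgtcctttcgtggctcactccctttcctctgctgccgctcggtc
MSMO1: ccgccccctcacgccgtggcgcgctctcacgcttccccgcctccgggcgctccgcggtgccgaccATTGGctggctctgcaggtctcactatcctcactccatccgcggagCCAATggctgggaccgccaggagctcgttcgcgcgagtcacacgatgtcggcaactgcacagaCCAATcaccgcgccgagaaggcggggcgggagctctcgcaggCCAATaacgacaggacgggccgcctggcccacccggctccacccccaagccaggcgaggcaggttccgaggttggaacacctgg

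**Figure D3:**
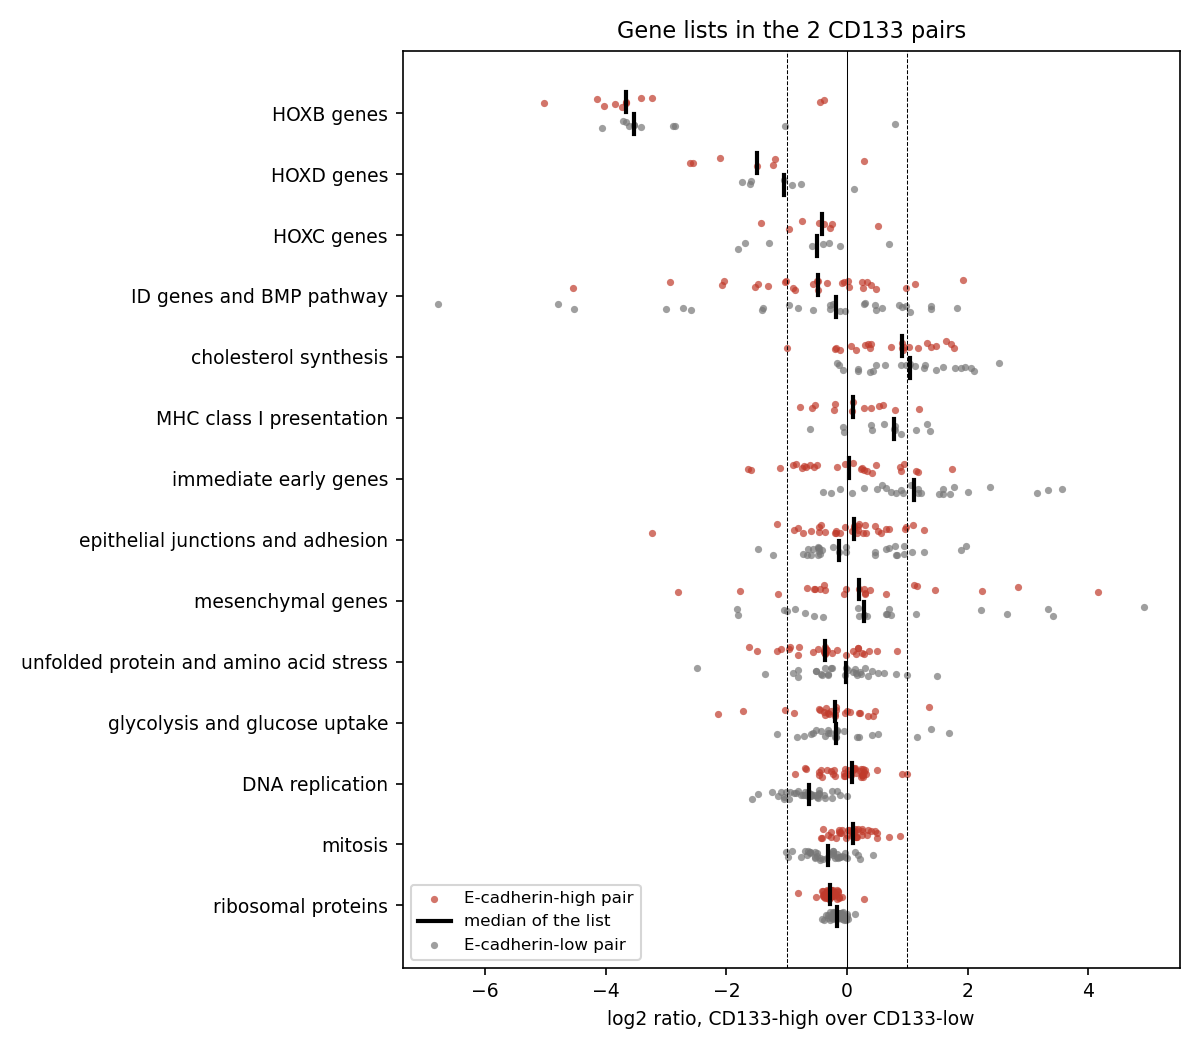
Log2 ratio, CD133-high over CD133-low, of each measured member of 14 gene lists (points) with the median of the list (black bars) in the E-cadherin-high and the E-cadherin-low pair. The HOXB genes lie far to the left and the cholesterol synthesis genes to the right in both pairs, while the median of the immediate early genes lies at 0.03 in the E-cadherin-high pair and at 1.11 in the E-cadherin-low pair.

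Epithelial genes and mesenchymal genes each differed in both directions. Of 34 measured epithelial junction genes, 2 were higher (CLDN3 and MUC1) and 2 lower, with a median of 0.12. ELF3, an epithelial transcription factor, read 50.6 in CD133-high against 506 in CD133-low cells, at least 9.43-fold lower, and DSP, which anchors desmosomes, read 3656 and 8212 (log2 ratio -1.17). Of 4 measured keratins, 2 were lower (50% against 3.44% of all measured genes), KRT7 at -1.26 and KRT10 at -1.07. KRT7 read 64.3 in CD133-high against 154 in CD133-low cells, and its other probe sets were below the floor on every array.

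Of 23 measured mesenchymal genes, 6 were higher and 3 lower, with a median of 0.20. VIM, the intermediate filament of mesenchymal cells, read 12448 in CD133-high against 1740 in CD133-low cells, 7.15-fold higher, and 20200 and 12938 in the E-cadherin-low pair. The CD133-low E-cadherin-high array was thus the low one of the 4. AXL, a receptor kinase, read 271 and 54.0, at least 4.72-fold higher. CCN1 and CCN2, matrix-associated growth modulators, were lower at -2.80 and -1.78. ZEB1, a repressor of CDH1, read 168 in CD133-high against 64.8 in CD133-low cells (1.37), and 1301 and 1056 in the E-cadherin-low pair. It was the only one called of 6 measured EMT transcription factors, and TWIST1 read 17844 and 20662.

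Secreted matrix proteins were found at both ends of the ratios. Of 42 measured matrix proteins other than collagens, 12 were higher, which is 28.6% against 5.36% of all measured genes, and 3 lower, with a median of 0.21. Besides EDIL3 and FBN2 the higher ones included SPP1, the phosphoprotein osteopontin, which read 428 in CD133-high against 176 in CD133-low cells, and 18750 and 182 in the E-cadherin-low pair. The proteoglycans LUM and DCN were higher at 1.46 and 1.17. The lower ones were GPC6, with 100 and 869 (log2 ratio -3.12), THBS1, with 58.1 and 379 (-2.71), and LAMA1, with 70.7 and 461 (-2.70).

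COL4A1 and COL4A2, chains of the type IV collagen of basement membranes, were both lower and not shared. COL4A1 read 198 in CD133-high against 937 in CD133-low cells, and 758 and 694 in the E-cadherin-low pair. COL4A2 read 61.0 and 289, and 362 and 241 in the E-cadherin-low pair. Both had a log2 ratio of -2.24, and by these probe sets the CD133-high E-cadherin-high array was the lowest of the 4. Dimmer probe sets of both genes were below the floor on that array, and also on the E-cadherin-low CD133-low array: the COL4A1 one read 9.38 in CD133-high against 136 in CD133-low cells, and 141 and 22.3 in the E-cadherin-low pair. The COL4A2 one read 7.75 and 89.0, and 65.3 and 28.3 in the E-cadherin-low pair. So in the E-cadherin-low pair the dimmer COL4A1 probe set had a log2 ratio of at least 1.30, against 0.13 for the brighter one. Among 22 measured collagens 3 others were higher: COL9A3, COL7A1 and COL6A1.

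LUM and DCN are also fibroblast markers, so the lists of other cell types were read beside these groups. Of 9 fibroblast markers on the array, 6 were measured and 2 of these, LUM and DCN, were higher. The summed signal of the list was 32352 in CD133-high against 24854 in CD133-low cells, most of it COL3A1 (29221 and 22769), while PDGFRA, PDGFRB and THY1 were below the floor. Leukocyte markers summed to 1447 in CD133-high against 540.5 in CD133-low cells. Of the 3 measured ones, 1 had a positive and 2 a negative log2 ratio, with a median of -0.06. The brightest of them was PTPRC, which read 1246 and 346 (log2 ratio 1.85), while CD14, LYZ, MS4A1 and FCER1G were below the floor. Endothelial markers summed to 303 in CD133-high against 326 in CD133-low cells, with VWF, CDH5 and KDR below the floor, and neuroendocrine markers to 225 and 164. Of 4 measured lung epithelium markers, 1 was higher (NKX2-1) and 1 lower (SFTPB, -1.02), and the list summed to 598 and 519. The part of other cells in the results was not tested.

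Growth factor signals and their feedback genes showed single large differences. HBEGF, a ligand of the EGF receptor, read 872 in CD133-high against 8016 in CD133-low cells (log2 ratio -3.20), and NRG1 read 32.6 and 202, at least 3.76-fold lower. LRIG1, which removes EGF receptors, was at least 3.99-fold higher and not shared. Of 11 measured genes of this family, 1 was higher and 3 lower. DUSP6, a phosphatase that is induced by ERK and acts on it, read 8371 and 1726 (2.28), and IER3 was lower at -1.64. The other measured DUSP6 probe sets gave smaller ratios, 1.32 and 0.78, and 0.78 is under the rule.

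Immediate early genes, which rise within minutes of a stimulus, were 3 higher and 3 lower of 26 measured, with a median of 0.03. In the E-cadherin-low pair 14 were higher and 0 lower, with a median of 1.11. EGR1 read 1824 in CD133-high against 5504 in CD133-low E-cadherin-high cells (log2 ratio -1.59), and 6515 and 1902 in the E-cadherin-low pair (1.78). NR4A3 was lower at -1.11 and NR4A2 higher at 1.18. The difference between the pairs has no replicate check.

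Receptors and secreted modulators of the Wnt pathway differed in both directions, 2 higher (6.06%) and 4 lower (12.1%) of 33 measured. DKK3 read 2413 in CD133-high against 490 in CD133-low cells (log2 ratio 2.30), whereas DKK1, an antagonist of Wnt co-receptors, read 375 and 1353 (-1.85). In the Notch list, 3 of 27 measured genes were higher (11.1%), among them the ligand DLL1 with 578 and 141 (2.04). HES4 was lower at -1.33. In the TGF-beta list 1 of 20 was called, SKIL, a corepressor of SMAD proteins, with 569 and 3325 (-2.55).

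Among 31 measured cytokines, chemokines and receptors, 6 were lower, which is 19.4% against 3.44% of all measured genes, and 1 higher. The median of the list was -0.09, with 15 positive and 16 negative log2 ratios. TNFSF10, a death ligand, read 307 in CD133-high against 1913 in CD133-low cells (log2 ratio -2.64), and IL18 read 1373 and 3565 (-1.38). Of 30 measured genes of the unfolded protein and amino acid stress response, 4 were lower, which is 13.3%, and 0 higher, with a median of -0.37. None of 18 measured heat shock genes was called. SLC7A5, a transporter of large amino acids, was lower at -1.63 and shared, and DDIT3, a stress factor, read 402 and 1134 (-1.49) and was not shared (501 and 497 in the E-cadherin-low pair).

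In the glucose list, 3 of 25 measured genes were lower and 1 higher, and the median was -0.21. SLC2A3, a glucose transporter, read 6216 in CD133-high against 27485 in CD133-low cells (log2 ratio -2.14), HK2, a hexokinase, read 928 and 3079 (-1.73), and SLC2A1 read 191 and 388 (-1.03). The other measured HK2 probe sets were dimmer and gave -0.47 and -0.29, under the rule. ALDOC was higher at 1.36. In the hypoxia list, 3 of 21 measured genes were lower and 1 higher, and the median was 0.15, with 13 of 21 positive. ADM, a vasodilator peptide, read 364 and 1875 (-2.37), and BNIP3L was the higher one, at 1.18.

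Interferon and antigen presentation genes that were called were mostly higher. Of 19 measured interferon response genes, 4 were higher (IRF9, IFI6, ISG20 and USP18, at 1.02 to 1.33), which is 21.1% against 5.36% of all measured genes, and 0 lower, with a median of 0.14, beside 0.72 in the E-cadherin-low pair. Of 13 measured MHC class I genes, 1 was higher, ERAP1 at 1.19. Of 10 measured MHC class II genes, 2 were higher, which is 20%, and 1 lower, which is 10% against 3.44% of all measured genes, with a median of 0.31. The higher ones were the invariant chain CD74 at 1.5 and HLA-DPA1 at 1.0, and the lower one was CTSS, a protease of the class II pathway, at most -1.71.

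Lists of genes that most cells use held no called member. None of 38 measured DNA replication genes, 38 mitosis genes, 45 ribosomal protein genes, 48 respiratory chain genes and 24 housekeeping genes was called. Their medians were 0.08 for replication, 0.10 for mitosis, -0.28 for ribosomal proteins, -0.26 for the respiratory chain and -0.20 for housekeeping genes. In the E-cadherin-low pair, 8 of 38 replication genes were lower and the median was -0.63. PCNA, the sliding clamp of DNA polymerases, had a log2 ratio of 0.99 in the E-cadherin-high pair, just under the rule, and -0.88 in the E-cadherin-low pair.

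A called gene was termed shared when it passed 2-fold in the same direction in the E-cadherin-low pair, partly shared from a log2 ratio of 0.5 in that direction, and not shared when it stayed below 0.5 in that direction and the pairs differed by at least 1. Of the 710 higher genes, 345 were shared (48.6%), 135 partly shared (19%) and 170 not shared (23.9%). Of the 456 lower genes, 158 were shared (34.6%), 83 partly shared (18.2%) and 165 not shared (36.2%). The remaining 60 higher genes (8.45%) and 50 lower genes (11%) met none of these. Of all measured genes, 1.28% were higher and not shared and 1.25% lower and not shared. The shared genes made up 30.2% of the 1142 higher and 26.3% of the 601 lower genes of the E-cadherin-low pair.

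The size and the brightness of the differences were set beside the sharing. All 17 genes at least 8-fold higher were shared, as were 19 of 23 at least 8-fold lower. The exceptions were SOX2, OLR1 and TFPI2, which were not shared, and ELF3, which was partly shared. For ELF3 that label rests on a bound near the floor, 59.4 and 94.3 in the E-cadherin-low pair. Another measured ELF3 probe set gave 0.25 there, and the remaining one was below the floor on both E-cadherin-low arrays. The brighter array of the lower genes that were not shared had a median signal of 169, against 786 for the shared lower genes, and 36.4% of them were bounds. For the higher genes, these medians were 477 for not shared and 578 for shared. With all measured genes split into 4 equal bins by their brighter array, 47.4% of the called genes were not shared in the dimmest bin and 19.8% in the brightest.

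**Figure D4:**
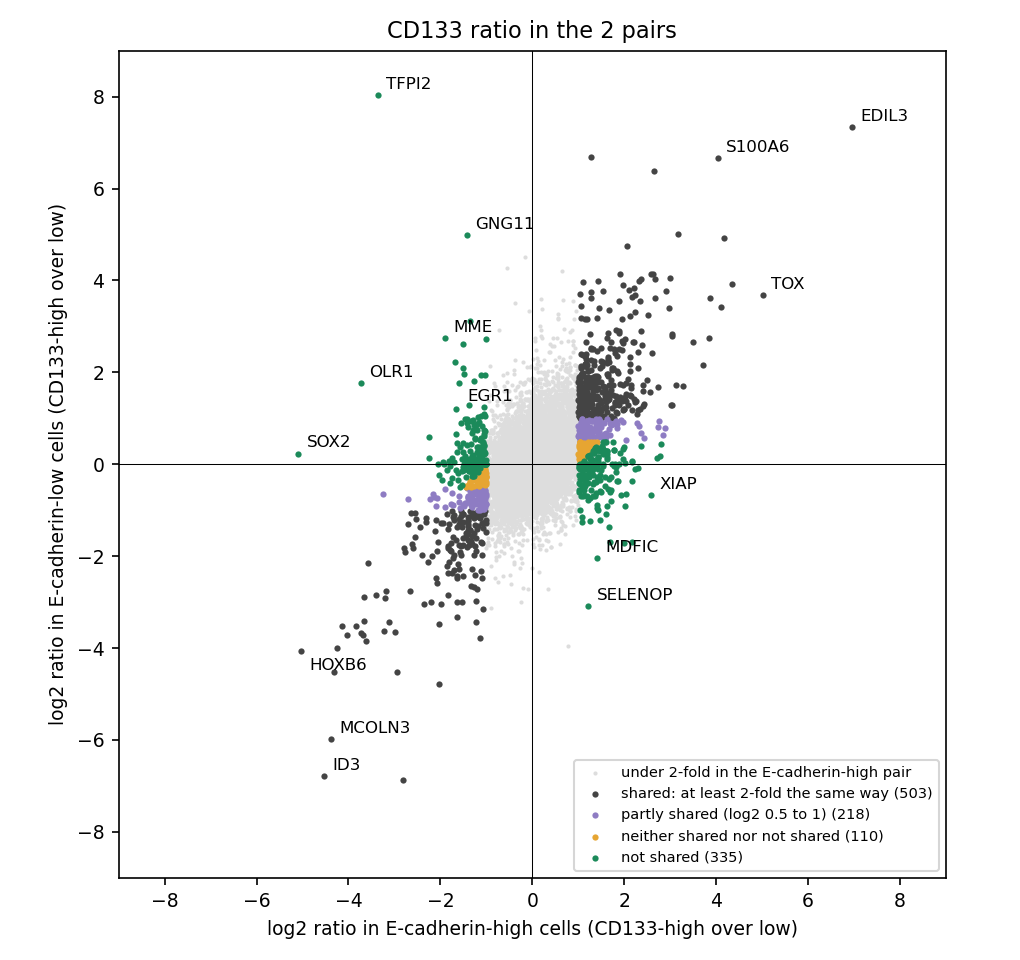
Log2 ratio of CD133-high over CD133-low signal in the E-cadherin-low pair (vertical) against that in the E-cadherin-high pair (horizontal), one point per gene measured in the E-cadherin-high pair. HOXB6 and EDIL3 lie near the diagonal, SOX2 lies far left near 0 on the vertical axis, and TFPI2 and OLR1 lie in the opposite quadrant.

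For the genes not shared, the level in the E-cadherin-low pair was set beside the E-cadherin-high arrays. Of the 170 higher ones, 9 were at the floor on both E-cadherin-low arrays and 121 were flat there. Of the flat ones, 78 lay nearer the level of CD133-high and 43 nearer that of CD133-low E-cadherin-high cells. Of the 165 lower ones, 21 were at the floor on both E-cadherin-low arrays and 98 were flat, with 39 nearer CD133-high and 59 nearer CD133-low E-cadherin-high cells. SOX2 and COL4A1 belong to these last 59, at levels close to CD133-low.

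Among the higher genes not shared, TTF2, a transcription termination factor, read 2300 in CD133-high against 334 in CD133-low cells (log2 ratio 2.78), and 1803 and 1601 in the E-cadherin-low pair. XIAP, an inhibitor of caspases, read 3918 and 656 (2.58), and 3316 and 5307 in the E-cadherin-low pair. For both, other probe sets gave another picture: the other measured TTF2 probe set had a ratio of -0.53, and the 6 other XIAP ones lay between -0.27 and 0.85. TET3, which oxidises methylcytosine, read 984 and 244 (2.01), and its other probe set gave -0.34.

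MDFIC and SELENOP had other probe sets with the same sign. MDFIC, an inhibitor of myogenic factors, read 3947 in CD133-high against 1495 in CD133-low cells, and 339 and 1406 in the E-cadherin-low pair. SELENOP, a selenium carrier, read 2084 and 896, and 222 and 1890 in the E-cadherin-low pair. Within the E-cadherin-high pair they were 2.64-fold and 2.33-fold higher, and in both genes the E-cadherin-low CD133-high array was the lowest of the 4. The other named ones were PYGB, FBXO43, MAP2K6, DUBR, TMEM74, ZNF358 and SHOX2, with log2 ratios from 1.47 to 2.18. TMEM74 turned to -0.26 when all its probe sets were averaged, any below the floor included. Its other measured probe set was past 2-fold in the same direction as the chosen one.

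Directions were opposite, by at least 2-fold in each pair, for 11 of the higher genes (1.55%) and 21 of the lower genes (4.61%). TFPI2, a secreted protease inhibitor, read 121 in CD133-high against 1251 in CD133-low E-cadherin-high cells (log2 ratio -3.37), and 14974 and 35.6 in the E-cadherin-low pair (at least 8.04). OLR1, a receptor for oxidised lipoproteins, read 62.2 and 824 (-3.73), and 1381 and 405 in the E-cadherin-low pair (1.77). MME, a membrane peptidase, read 12.8 and 199, at least 3.70-fold lower, and 4532 and 673 in the E-cadherin-low pair. In each of these genes the E-cadherin-low CD133-high array was the highest of the 4, and this array also had the highest 3′ over 5′ values of actin (1.78) and GAPDH (1.02), whose part in these ratios was not tested.

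**Figure D5:**
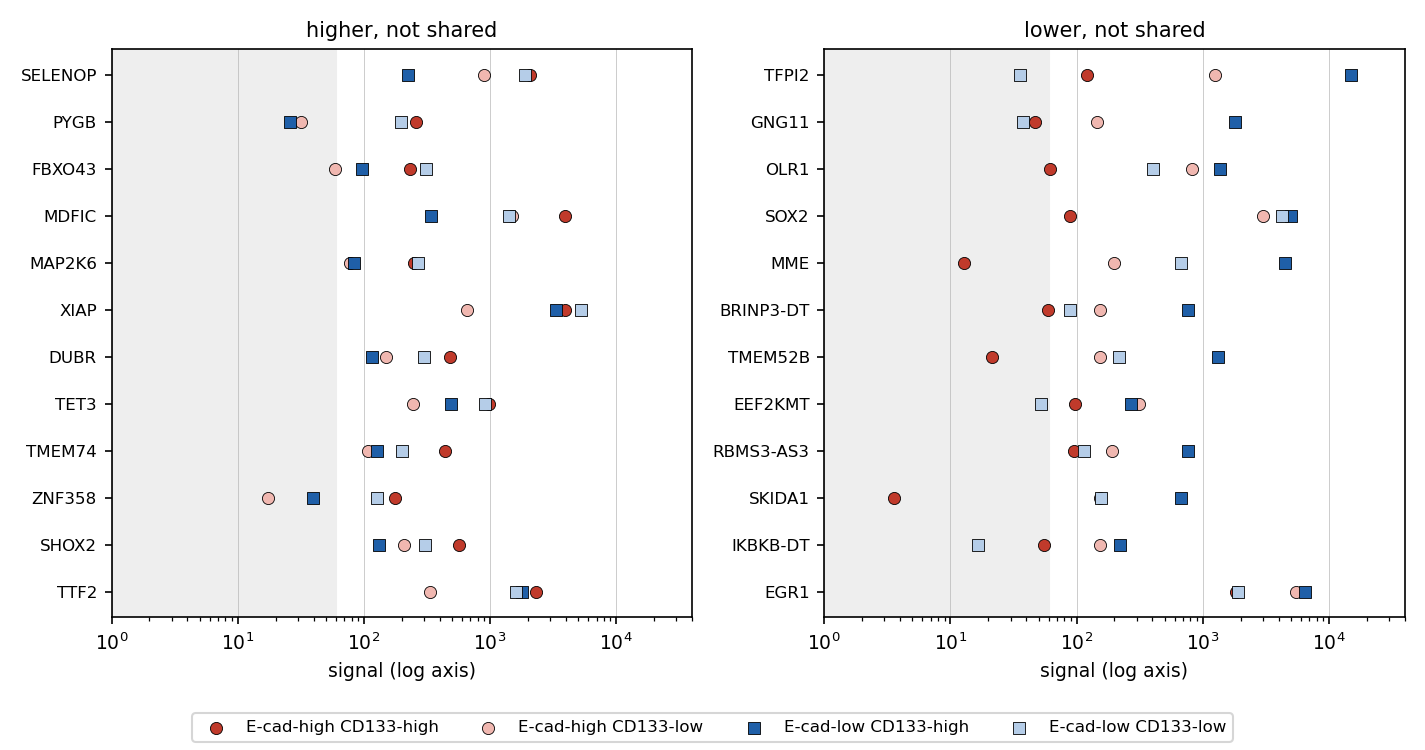
Signals on a log axis, one point per array, of the genes with the largest differences between the pairs among those not shared, higher and lower in E-cadherin-high CD133-high cells. TFPI2, GNG11 and MME lie far to the right on the E-cadherin-low CD133-high array, whereas SOX2 lies far to the left on the E-cadherin-high CD133-high array.

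Called genes were also read in chromosome order, over 13238 measured genes placed in RefSeq order. There were 23 runs of at least 3 neighbouring genes called in the same direction, with 79 genes in all. The longest, 9 genes, was the lower run from HOXB3 to HOXB9 with MIR10A and HOXB-AS3. On chromosome 7, SKAP2, an adaptor of immune cell adhesion beside the HOXA cluster, was lower together with HOXA2, HOXA-AS2, HOXA-AS3 and HOXA11-AS. SKAP2 read 496 in CD133-high against 6129 in CD133-low cells (log2 ratio -3.63).

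Other lower runs were CABLES1, SLC35D4, RIOK3 and RMC1 on chromosome 18, led by CABLES1 with 88.8 in CD133-high against 803 in CD133-low cells, and MCOLN2, MCOLN3 and SYDE2 on chromosome 1. MCOLN3, an ion channel of endosomes, read 91.4 and 1890 (log2 ratio -4.37), and SYDE2 read 54.5 and 1032 (-4.24). Higher runs included HPS3, TM4SF18, TM4SF1 and TM4SF4 on chromosome 3, where TM4SF1, a tetraspanin-like membrane protein, read 14676 and 4458 (1.72). FAM171B, CALCRL and TFPI formed another on chromosome 2, where TFPI, an inhibitor of coagulation, read 20252 and 5444 (1.90).

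FAM111A, FAM111A-DT and FAM111B were higher together on chromosome 11. FAM111A, a protease of replicating chromatin, read 2611 in CD133-high against 1183 in CD133-low cells (log2 ratio 1.14), and its divergent transcript FAM111A-DT read 1032 and 290 (1.83). Both were shared, whereas FAM111B, at least 3.20-fold higher, was not. The starts of FAM111A and FAM111A-DT lie 48 bases apart on opposite strands, and their RefSeq promoter windows overlap by 147 bases. The FAM111A window (GRCh38.p14, chr11:59142606-59142905, plus strand) is shown to make that arrangement visible, with the overlap in capitals:
FAM111A: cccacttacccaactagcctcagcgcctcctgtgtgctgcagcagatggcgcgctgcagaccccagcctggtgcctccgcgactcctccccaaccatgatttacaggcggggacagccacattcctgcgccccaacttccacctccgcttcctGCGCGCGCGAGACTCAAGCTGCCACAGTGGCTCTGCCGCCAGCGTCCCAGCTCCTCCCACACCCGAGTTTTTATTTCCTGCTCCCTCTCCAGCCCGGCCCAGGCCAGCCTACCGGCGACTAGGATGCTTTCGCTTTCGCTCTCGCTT

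Probe sets of 1 gene are repeated readings of the same RNA and not replicates, and they were compared last. The 368 higher genes with another measured probe set had 647 of them, of which 79.1% had the same sign and 28.4% passed 2-fold the same way. For the 186 lower genes these shares were 89.5% and 42.1%, and for genes not called 61.8% had the sign of the chosen probe set and 4.97% passed 2-fold. Within the higher genes the share passing 2-fold was 39.9% for shared and 14.8% for not shared ones, and within the lower genes 43.7% and 50.8%. HOXB-AS3, HOXB7 and TFPI each had all of their other measured probe sets past 2-fold in the same direction.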

How the data were processed

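RNA of 4 sorted subpopulations of PC14 cells was measured on 1 array each. The deposited values are intensities per probe set on a linear scale, and the submitters' processing notes name MAS5, with no version. The trimmed mean intensity was 500.1 on each array, so the authors had scaled the arrays alike. Precision is limited by the number of arrays. No scan dates or detection calls were used.

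Of 54675 probe sets, 62 were controls, 41097 had 1 gene symbol in the platform annotation, 1801 had several and were not used, and 11777 were unnamed here, controls included. Each of 19775 genes was read from 1 probe set, the one of highest mean log2 intensity over the 4 arrays. The floor, set at the 50th percentile of an array after leaving out controls, and the 2-fold rule stand in for a test. The procedure was tested on simulated data, with changes well past the 2-fold rule planted in genes well above the floor. Planted changes near the rule or in genes near the floor were not tried.

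Members, rules and the 64 gene lists were chosen with earlier results of these data known. Named are CDH1, PROM1, the 15 largest ratios per direction, the 12 largest differences between the pairs per direction among genes not shared, 12 genes of opposite direction, up to 6 called members of a list, and genes of runs. List members that were not called, further called members, the markers of other cell types and the search for CCAAT were added after the values were seen. Promoter and microRNA sequences are from RefSeq (GRCh38.p14). Probe sets matched RefSeq gene IDs in 41043 cases. Alternatives were other normalizations, floors, fold thresholds and choices of probe set. Scripts ran in Python 3.11.15 with pandas 2.3.3, numpy 2.4.6 and matplotlib 3.10.9.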

Additional observations from a re-analysis of the deposited data

Results flagged for a closer look

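Each gene below differed by at least 2-fold in opposite directions in the 2 pairs. With 1 array per subpopulation the difference between the pairs was not tested, and the genes were ranked from 32 such genes by the smaller of their 2 absolute ratios.

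Lower in CD133-high E-cadherin-high cells and higher in CD133-high E-cadherin-low cells were 9 of the 12. OLR1 had a log2 ratio of -3.73 in the E-cadherin-high pair and 1.77 in the E-cadherin-low pair. TFPI2 had -3.37 and at least 8.04, MME at most -1.89 and 2.75, and EEF2KMT -1.68 and at least 2.23. EGR1, an immediate early transcription factor, had -1.59 and 1.78. TMEM52B had at most -1.51 and 2.61, SKIDA1 at most -1.51 and 2.10, IKBKB-DT -1.48 and at least 1.96, and GNG11, a G protein subunit, at most -1.43 and at least 4.99. On the E-cadherin-high CD133-high array, MME, TMEM52B, SKIDA1 and GNG11 were at the floor.

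Higher in CD133-high E-cadherin-high cells and lower in CD133-high E-cadherin-low cells were 3 of the 12. PYGB, a glycogen phosphorylase, had at least 2.18 and at most -1.70. It read 259 in CD133-high against 31.8 in CD133-low E-cadherin-high cells, and 25.9 and 196 in the E-cadherin-low pair. FBXO43 had 2.0 and -1.70, and MAP2K6, a kinase of the p38 pathway, had 1.70 and -1.70. MAP2K6 read 251 and 77.6 in the E-cadherin-high pair, and 82.9 and 269 in the E-cadherin-low pair.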

How the results depend on the processing

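No paired analysis was possible because each subpopulation had 1 array and no replicate numbers. The counts were 710 higher, 456 lower, 170 and 165 not shared (higher and lower), and 32 opposite, and 4 lists had a median beyond 0.5. Without a floor they were 1154, 881, 393, 412 and 184 genes. With the floor at the 25th percentile they were 1773, 1786, 783, 1093 and 392, with 7 lists, and at the 65th percentile 469, 242, 109, 57 and 10. At 1.5-fold they were 1875, 1518, 330, 343 and 224, and at 3-fold 215, 124, 49, 27 and 8. Without probe sets marked as shared, 8 lists had such a median. A floor or threshold changes by construction which genes can be called. Of the called genes 60.9% were higher, against 71.6% with equal array medians, which shifted the median of all genes to 0.08, and 49.8% with the lower floor. Quantile normalization, equal medians and the other choices of probe set kept each of the 5 counts within 1.5 times, although with the mean over probe sets 52.8% of the higher and 62.3% of the lower genes remained called. Of 419 recomputed ratios of named genes, 322 moved by under 0.5, 96 by more, and 1 reversed: TMEM74, -0.26 with the mean over probe sets. Of 464 recomputed list medians, 28 moved by at least 0.25. A reversal was counted only for lists with a median beyond 0.5, 4 of 58, and none of these reversed. Changes of sign in the smaller medians were not counted.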

Other observations

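Axon guidance genes and protocadherins were not described above. Of 32 measured axon guidance genes, 4 were higher (12.5%) and 1 lower (3.1%), with a median of -0.02. ROBO2, a receptor for SLIT proteins, read 3288 in CD133-high against 833 in CD133-low E-cadherin-high cells (log2 ratio 1.98), and 4395 and 293 in the E-cadherin-low pair. UNC5C, a netrin receptor, read 2187 and 929, and NTN4, a secreted netrin, was at least 3.70-fold higher and below the floor on both E-cadherin-low arrays. SEMA6D was at least 3.13-fold lower. Of 20 measured cadherins other than E-cadherin, 3 were higher and 1 lower. PCDH7 read 17343 and 6791 (1.35), and PCDH17 was lower at -1.72.

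Imprinted genes, expressed from 1 parental copy, had 3 higher (27.3%) and 1 lower (9.09%) of 11 measured, with a median of 0.61. GRB10, an adaptor of the insulin receptor, read 81.6 in CD133-high against 974 in CD133-low cells (log2 ratio -3.58), and 244 and 1074 in the E-cadherin-low pair. Lipid-binding FABP7 was at least 7.03-fold lower and FABP4 at least 4.18-fold higher. CCND2, a cyclin of the G1 phase, read 418 and 66.5 (2.65), and 4749 and 11.8 in the E-cadherin-low pair.

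Probe sets without a gene symbol were counted apart. Of 3959 measured ones, 143 were at least 2-fold higher in CD133-high cells (3.61%) and 235 at least 2-fold lower (5.94%).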
